A study of Mus musculus with 12 samples.

Results

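Transcripts of 10 histone deacetylase genes were compared in left ventricles of mice with and without heart failure with preserved ejection fraction (HFpEF). The genes were Hdac1, Hdac2, Hdac3, Hdac4, Hdac5, Hdac6, Hdac7, Hdac9, Hdac10 and Hdac11, read by symbol from a table of 29564 genes, and Hdac6 encodes the target of the inhibitor TYA-018. Poly(A) RNA was sequenced from 12 hearts, 4 in each of 3 groups, and each library holds the RNA of 1 mouse. Libraries are numbered within each group in order of animal number and carry the letter C, V or T.

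All mice were wild-type C57BL6. Control-Veh mice (C1 to C4) were non-failing and received vehicle. HFpEF-Veh mice (V1 to V4) received a high-fat diet with L-NAME, which blocks nitric oxide synthase, and then vehicle. HFpEF-TYA-018 mice (T1 to T4) had that same diet and L-NAME and were given TYA-018 by mouth at 15 mg/kg. The title of the series names a single dose, and the study describes an experiment of this kind in which hearts were taken hours after 1 dose of vehicle or TYA-018. The treatment protocol in the labels, which names daily doses over weeks, differs from this. The model acts on the whole animal and not on 1 cell type of the heart. The labels give no sex, age or batch, and the study describes its C57BL/6J mice as male. Animal numbers ran together within each group, and the effect of any shared cage or handling day cannot be told apart from that of the group. Nothing beyond the animal numbers says how the mice were housed, so p values measure the spread between these libraries.

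Histone deacetylases remove acetyl groups from lysines and are sorted into classes by sequence. The class I enzymes HDAC1 and HDAC2 are the catalytic subunits of nuclear repressor complexes such as Sin3, NuRD and CoREST, and HDAC3 works within NCoR/SMRT. The class IIa proteins HDAC4, HDAC5, HDAC7 and HDAC9 bind MEF2 factors in the nucleus and hold down growth genes of the heart muscle cell until kinases such as CaMKII and protein kinase D phosphorylate them and 14-3-3 proteins keep them in the cytoplasm. HDAC6 and HDAC10 form class IIb. HDAC6 is mainly cytoplasmic, removes acetyl groups from alpha-tubulin, cortactin and HSP90, and binds ubiquitin. HDAC11 is the only member of class IV. An inhibitor such as TYA-018 acts on the enzyme, whereas the values here are levels of messenger RNA and say nothing of protein or activity.

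In the hearts of HFpEF-Veh mice, transcripts of Hdac4, Hdac5, Hdac6 and Hdac11 fell and those of Hdac7 rose against Control-Veh. In HFpEF-TYA-018 against HFpEF-Veh, these same 5 genes moved back, and Hdac3 rose while Hdac1 fell. Both comparisons use the same HFpEF-Veh libraries, so they are not independent. In the second, leaving out 1 library lost the calls on Hdac6, Hdac4, Hdac3 and Hdac1 in 10, 8, 7 and 4 of 12 fits. The changes were small, the largest being a rise of 41.8% in Hdac11. None of the 10 genes differed by the test between HFpEF-TYA-018 and Control-Veh. These calls rest on estimated counts scaled by library. When the effective gene lengths that the authors also deposited were brought in, most of the calls were lost, as described for each comparison.

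All 10 genes are protein-coding in the GENCODE M21 annotation of the GRCm38 genome. Hdac6 lies on the minus strand at chrX:7930120-7947889, Hdac5 on the minus strand at chr11:102194432-102230166, Hdac4 on the minus strand at chr1:91928779-92195699, and Hdac11 on the plus strand at chr6:91156665-91174692. Hdac7 lies on the minus strand at chr15:97792664-97844502. Exons of Hdac4, Hdac7 and Hdac11 overlap exons of genes on the opposite strand (Gm26720, Slc48a1, and Gm14573 with Gm44002). The kit marked strand, but whether strand was used in counting is not given in the sources used here, so their values may include reads of those neighbours. Exons of Hdac5 overlap Mir8101 on the same strand, which the mark of strand does not separate.

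The stretches just upstream of the transcription start are shown for Hdac4, Hdac5, Hdac6 and Hdac11, because these 4 genes were called lower in HFpEF-Veh and higher in HFpEF-TYA-018. They were taken from RefSeq on GRCm38.p6, in which 7 of the 10 genes had an entry, and they are written 5′ to 3′ on the strand of the gene. Capitals mark the GC box GGGCGG and the CCAAT box, on either strand, and the binding motif of MEF2. The Hdac4 stretch is chr1:92180342-92180591 (minus strand), Hdac5 is chr11:102230173-102230422 (minus strand), Hdac6 is chrX:7947890-7948139 (minus strand) and Hdac11 is chr6:91156565-91156664 (plus strand). The Hdac4 stretch lies inside the span that GENCODE M21 gives to the gene, since the RefSeq start used here is not the outermost. The first 3 hold 250 bases, and that of Hdac11 holds 100 bases because the rest of its window is an annotated exon.
Hdac4: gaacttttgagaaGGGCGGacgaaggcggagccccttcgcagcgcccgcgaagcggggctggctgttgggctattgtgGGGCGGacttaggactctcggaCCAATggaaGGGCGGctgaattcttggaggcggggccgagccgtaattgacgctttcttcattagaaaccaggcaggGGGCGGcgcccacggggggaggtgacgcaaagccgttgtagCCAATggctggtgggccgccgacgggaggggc
Hdac5: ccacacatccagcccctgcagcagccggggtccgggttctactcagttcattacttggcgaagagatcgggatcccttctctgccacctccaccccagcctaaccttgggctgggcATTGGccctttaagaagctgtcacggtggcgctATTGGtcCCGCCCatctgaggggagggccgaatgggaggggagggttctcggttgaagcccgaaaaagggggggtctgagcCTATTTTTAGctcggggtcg
Hdac6: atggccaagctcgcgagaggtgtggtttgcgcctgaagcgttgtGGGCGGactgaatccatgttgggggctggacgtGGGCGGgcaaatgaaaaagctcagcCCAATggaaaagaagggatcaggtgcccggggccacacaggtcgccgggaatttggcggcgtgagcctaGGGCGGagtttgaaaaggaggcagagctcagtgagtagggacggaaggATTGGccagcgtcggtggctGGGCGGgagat
Hdac11: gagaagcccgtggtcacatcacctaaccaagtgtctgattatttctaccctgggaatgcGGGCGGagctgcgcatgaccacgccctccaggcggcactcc

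In the 250 bases upstream of the start, Hdac4 and Hdac6 each held 4 GC boxes and 2 CCAAT boxes. Hdac5 held 1 GC box, 2 CCAAT boxes and a MEF2 motif that began 20 bases before the start, and Hdac11 held 1 GC box and 1 CCAAT box, the latter beyond the stretch shown. Of 32851 windows of the same length in the table, 32.7% held a GC box, 33.8% a CCAAT box, 12.4% the TATA box TATAAA and 2.92% the MEF2 motif, each on either strand. Neither window of Hdac9 held a GC or CCAAT box, and 1 of the 2 held a TATA box. Of the 4 windows of Hdac7, 1 held a GC box and none a CCAAT box. The window of Hdac2, a gene not called by edgeR in any comparison, held 1 GC box and no CCAAT box. G and C made up 60.8% to 65.2% of the 250-base windows of Hdac4, Hdac5, Hdac6 and Hdac11. The median over all windows was 52.4%. These matches describe letters and not occupied sites.

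The total estimated count per library ran from 61.2 M to 83.9 M (M, 1e+06), and T1 was the deepest. Between 641 and 1460 estimated counts per library fell on Hdac6, and over all 10 genes the range was 270 (Hdac9) to 7972 (Hdac5). At these depths the counting error at the median count was between 1.40% (Hdac5) and 4.74% (Hdac9) and was smaller than the biological coefficient of variation of the fit, which ran from 6.65% (Hdac5) to 21.05% (Hdac9) against a median of 13.7% over all genes tested. The share of counts from mitochondrial genes was 43.1% to 47.7% in HFpEF-Veh, higher than the 37.0% to 40.6% of Control-Veh and the 35.4% to 41.2% of HFpEF-TYA-018.

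Markers of several cell types in the heart moved along with the groups. Marker sums are in CPM (counts scaled to 1e+06 per library) of total counts, mitochondrial ones included, whereas CPM of single genes are also scaled by TMM. A larger mitochondrial share, as in HFpEF-Veh, leaves less for other genes in such sums. The summed level of 6 heart muscle genes was lowest in HFpEF-Veh, at 19194 to 20880 CPM. It was 23013 to 27665 in Control-Veh and 22031 to 27139 in HFpEF-TYA-018. Of the 6 genes, 4 were called lower and 1 higher in HFpEF-Veh. None was at 0, and 4 atrial genes summed to at most 238 CPM. The 5 red cell genes were all called higher in HFpEF-Veh (4251 to 13442 CPM, highest in V1, against 1559 to 2433 in Control-Veh and 2576 to 3450 in HFpEF-TYA-018). All 4 macrophage genes measured were higher too (81.5 to 104 against 57.5 to 74.1 and 66.0 to 71.4 CPM). So were 2 of 5 fibroblast, 3 of 5 endothelial and 4 of 5 proliferation genes, the remaining proliferation gene being called lower. The sums of these last 3 lists overlapped between HFpEF-Veh and Control-Veh. Of 6 mural genes 1 was called higher, and of 4 lymphocyte genes tested 1 was called lower. Over all genes 10.9% were called higher and 10.3% lower in this comparison. With TYA-018 against HFpEF-Veh, all 5 red cell, 3 fibroblast, 3 endothelial, 2 macrophage, 2 proliferation and 1 mural gene were called lower. Of the heart muscle genes 2 were called higher, and over all genes 8.93% were higher and 10.4% lower. Against Control-Veh, HFpEF-TYA-018 had 3 proliferation genes, 1 fibroblast and 1 heart muscle gene called higher. Called lower were 1 proliferation and 1 heart muscle gene, where 3.12% of all genes were higher and 2.74% lower. The part of these shifts in the results for the deacetylases was not tested, and in whole tissue fewer cells of a type and less RNA per cell cannot be told apart.

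Per length, in TPM (the authors' values, in which counts are divided by effective length and scaled to a common total), Hdac2 (11.2 over all libraries) and Hdac5 (10.9) stood highest, followed by Hdac7 (7.14), Hdac3 (5.27) and Hdac1 (4.43). A lower group was made up of Hdac10 (1.51), Hdac4 (1.19), Hdac11 (1.05), Hdac6 (0.971) and Hdac9 (0.644). Hdac1 was above Hdac10 in all 12 libraries. Some neighbours changed places between the study's groups. Hdac2 was above Hdac5 in 4 of 4 HFpEF-Veh libraries and 3 of 4 Control-Veh libraries, and below it in 4 of 4 HFpEF-TYA-018 libraries. Others held no order within their spread, since Hdac4 was above Hdac11 in 7 of 12 libraries and Hdac10 above Hdac4 in 8. Hdac11 was above Hdac6 in 4 of 4 HFpEF-TYA-018 libraries and in 2 of 4 of each other group. The drug target ranked 9 of 10 by its mean over all libraries and in HFpEF-TYA-018, and 8 of 10 in Control-Veh and HFpEF-Veh. The level of Hdac6 in TPM was 1.00 ± 0.123 (SD, n = 4) for Control-Veh mice, 0.748 ± 0.191 for HFpEF-Veh mice and 1.17 ± 0.477 for HFpEF-TYA-018 mice.

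The order depends on the length used. The effective length of Hdac11 was between 4220 and 6151 bases, although its longest annotated transcript has 2653 bases, and it exceeded that transcript in 12 of 12 libraries. The same happened in 6 libraries for Hdac6, 4 for Hdac4 and 2 for Hdac10. The authors ran salmon with corrections for sequence, GC and position bias on GENCODE M25, whereas the transcript lengths given here are from M21. The part of either in the excess was not tested, and the effective lengths are not to be read as lengths of transcripts. Between libraries the effective length varied by a ratio of 1.14 for Hdac3 and up to 2.99 for Hdac10. With CPM divided by the length of the longest transcript, which was tried after these lengths were seen, the order began with Hdac5, Hdac7 and Hdac2, Hdac6 stayed at 9, and Hdac11 moved up from 8 to 6. On that scale Hdac11 (5.32) came next after Hdac1 (7.56), which was above it in 11 of 12 libraries, so the step between the upper and the lower group depends on the length given to Hdac11.

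**Figure D1:**
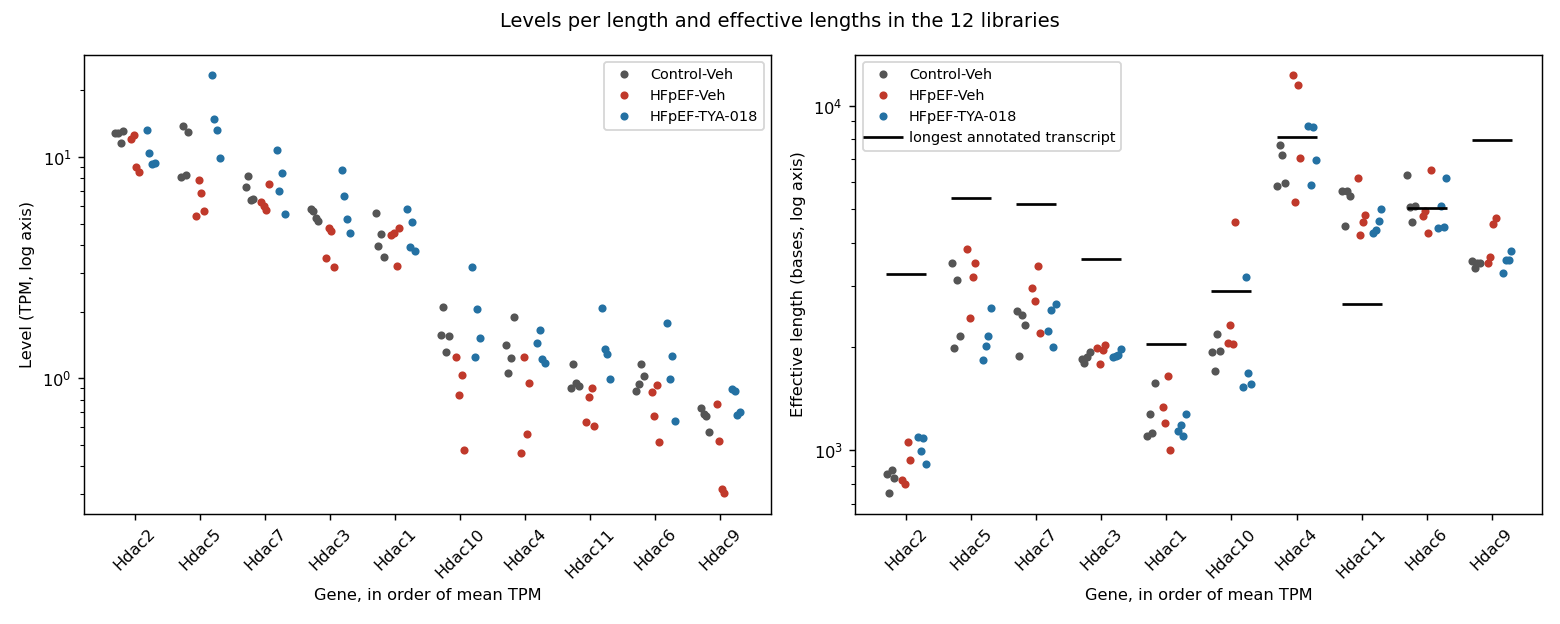
The left panel plots the level of each gene in TPM on a log axis and the right panel its effective length in bases on a log axis, with 1 point per library coloured by group and a black line at the longest annotated transcript. Hdac2, Hdac5, Hdac7, Hdac3 and Hdac1 form the upper group, and every point of Hdac11 in the right panel lies above its line of 2653 bases.

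The first comparison, HFpEF-Veh against Control-Veh, asks how the model changes these transcripts. By edgeR, 5 of the 10 genes were called at an adjusted p under 0.05, where 21.2% of the 14333 genes tested were called. One gene was called higher and 4 lower, against 10.9% and 10.3% of all genes. All 10 genes passed the filter on low counts. The median log2 fold change of the 10 genes was -0.29 and that of all genes -0.01. For 6 of the 10 genes no library of 1 group lay within the range of the other, 1 higher and 5 lower, against 23.5% of all genes. DESeq2 called 7 of the 10, and 26.2% of all genes.

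Class I did not pass the test in this comparison. Hdac1 was at 16.5, 15.1, 14.9 and 15.9 CPM in C1 to C4 and at 18.7, 17.6, 15.1 and 16.3 CPM in V1 to V4 (log2 fold change 0.12 ± 0.08 (SE), adjusted p = 0.332). Its groups overlapped, with V1 and V2 above all controls. Hdac2 was at 29.5, 29.0, 30.0 and 31.1 CPM in Control-Veh and 31.0, 32.6, 27.3 and 27.2 CPM in HFpEF-Veh (-0.02 ± 0.06, adjusted p = 0.870). Here V2 was above and V3 and V4 were below all controls. Hdac3, the catalytic subunit of NCoR/SMRT, was at 28.9, 30.8, 29.2 and 28.4 CPM against 21.8, 27.5, 25.8 and 21.7 CPM. Its 4 HFpEF-Veh libraries lay below the 4 controls, yet the difference of -0.28 ± 0.09 missed the threshold (adjusted p = 0.0503).

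In class IIa, Hdac5 was the most abundant of the 10 genes by count and fell. Its level was 76.1, 82.2, 76.3 and 80.0 CPM in Control-Veh and 65.0, 61.6, 62.6 and 67.0 CPM in HFpEF-Veh, with no overlap between the groups. The log2 fold change was -0.30 ± 0.05 (adjusted p = 0.00327), and the call held whichever library was left out. Hdac4 was at 22.2, 24.4, 26.4 and 32.4 CPM against 17.6, 21.3, 18.4 and 22.7 CPM (-0.40 ± 0.11, adjusted p = 0.0266). V4 reached above C1, and the highest control was C4. Without C3, C4, V1 or V3, each left out alone, the call on Hdac4 was lost (adjusted p up to 0.0754). Hdac7 went the other way. It stood at 49.8, 46.0, 46.6 and 42.7 CPM in Control-Veh and at 58.1, 52.6, 56.4 and 56.0 CPM in HFpEF-Veh, with every HFpEF-Veh library above every control (0.27 ± 0.06, adjusted p = 0.00597). HDAC7 is known for its role in endothelial cells. Of 5 marker genes of these cells 3 were called higher in HFpEF-Veh, where 10.9% of all genes were. Their sums overlapped, at 662 to 876 CPM against 579 to 766 in Control-Veh, and any link to Hdac7 was not tested. Hdac9 was the least abundant and the most variable, at 6.96, 7.01, 7.002 and 5.71 CPM against 8.46, 6.08, 4.10 and 4.84 CPM (-0.18 ± 0.20, adjusted p = 0.547), with V1 above and V3 and V4 below all controls.

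Hdac6 fell by 22.3% in HFpEF-Veh. It was at 14.8, 14.4, 15.8 and 15.0 CPM in Control-Veh and at 13.05, 10.8, 11.4 and 11.3 CPM in HFpEF-Veh, so that its groups did not overlap (-0.36 ± 0.09, adjusted p = 0.0117). The call held when each of the 12 libraries was left out in turn, with adjusted p between 0.00690 and 0.0366. For protein, the study reports by western blot an increase of HDAC6 in hearts of mice given a high-fat diet with L-NAME. The values here are of messenger RNA alone. Hdac10, which acts mainly on acetylated polyamines, was at 8.10, 10.7, 8.44 and 8.60 CPM against 8.06, 6.24, 6.02 and 7.33 CPM. The groups did not overlap, V1 lying just under C1, but the difference was not called (-0.37 ± 0.13, adjusted p = 0.0636). Hdac11, which removes long fatty acyl groups from lysines, fell by 23.98%, from 13.7, 15.6, 15.9 and 14.5 CPM to 12.3, 11.3, 11.8 and 9.95 CPM, without overlap (-0.40 ± 0.08, adjusted p = 0.00567). The differences of Hdac4 and Hdac11 were the largest of the 10.

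**Figure D2:**
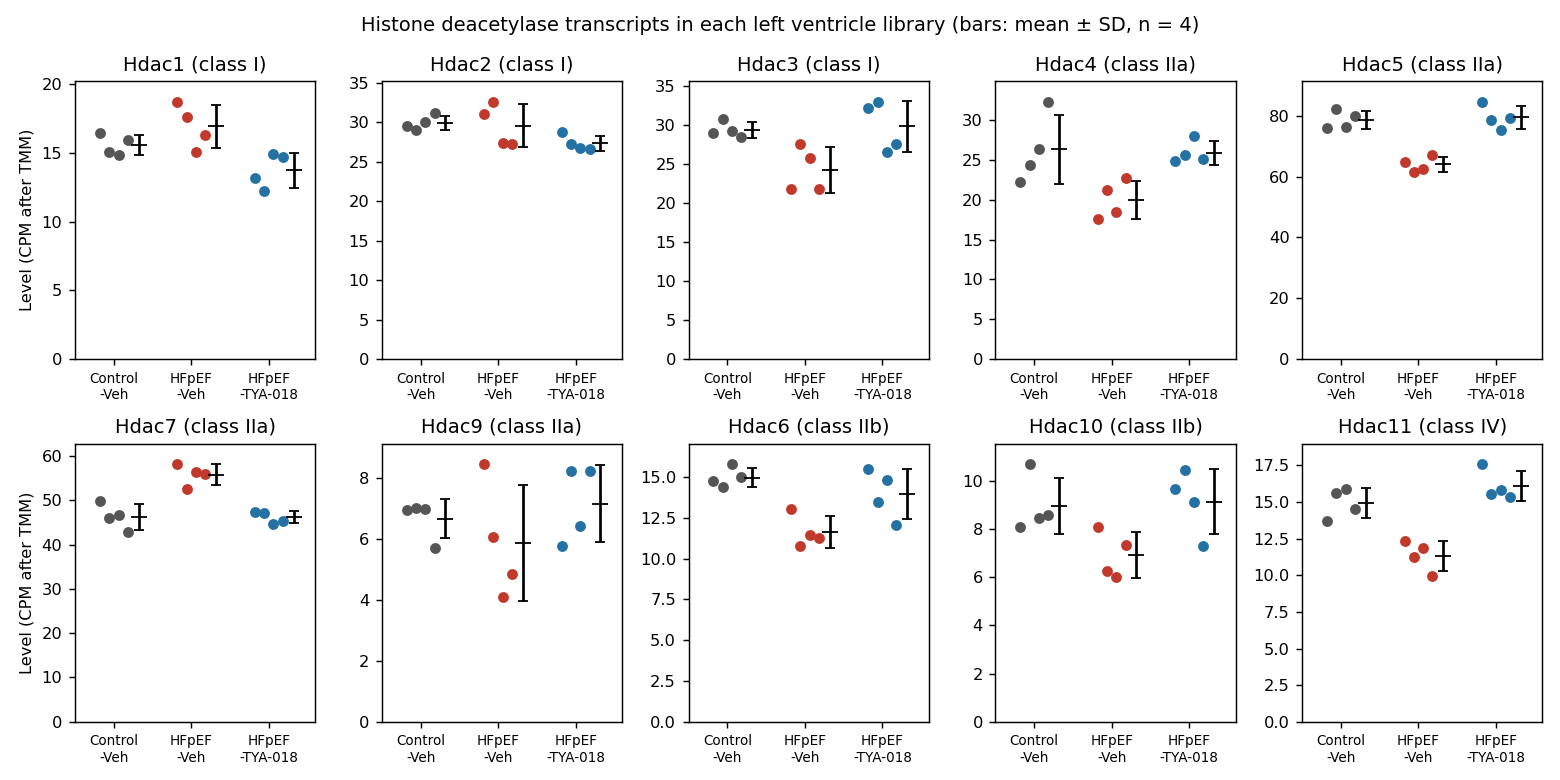
Each panel plots the level of 1 gene in CPM after TMM scaling in the 12 libraries, with points coloured by group and, beside them, the mean with a bar of 1 SD (n = 4). Hdac5 and Hdac11 sit lower in all 4 HFpEF-Veh libraries than in the other groups, and Hdac7 sits higher in all 4.

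The effective lengths bear on these calls. With the lengths as an offset in the same model, 0 of the 10 genes were called in this comparison, and the share of all genes called was 10.1%. Hdac6 was then at -0.22 (adjusted p = 0.482), Hdac11 at -0.20 (0.329), Hdac5 at -0.53 (0.111), Hdac4 at -0.56 (0.297) and Hdac7 at 0.09 (0.744). On the scale the study used for testing, log2(TPM + 1) of nuclear protein-coding genes, limma also called 0 of 10, where 7.95% of all genes were called, and Hdac6 was at -0.15 (adjusted p = 0.633). On log2(TPM + 1) without that step the sign of Hdac7 turned (-0.13), and on that scale the median of all genes was at -0.07.

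The second comparison, HFpEF-TYA-018 against HFpEF-Veh, asks what the inhibitor changed in the model. It shares the HFpEF-Veh libraries with the first, so the 2 sets of values are not independent. By edgeR, 7 of the 10 genes were called, where 19.3% of all genes were called. Of these 5 were higher and 2 lower, against 8.93% and 10.4% of all genes. The median log2 fold change of the 10 genes was 0.29 and that of all genes 0.00. No overlap between groups was seen for 5 of the 10 genes, 3 higher and 2 lower, against 25.1% of all genes. DESeq2 called 8 of the 10, and 23.8% of all genes. The count of 7 fell to 3 without T1 or without T2 and to 4 without C3, V2 or V3. A library of neither group compared, such as C3 here, enters only through what all groups share in the fit, chiefly the estimate of the spread.

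Hdac1, at 13.2, 12.2, 14.9 and 14.7 CPM in T1 to T4, lay below all HFpEF-Veh libraries and fell (-0.30 ± 0.08, adjusted p = 0.0270). The call was lost without V1, V2, T1 or T2 (adjusted p up to 0.0799), and on log2(TPM + 1) without further scaling the value was 0.10, below the median shift of 0.17. Hdac2 was at 28.7, 27.2, 26.8 and 26.6 CPM, with T1 and T2 within the range of HFpEF-Veh and T3 and T4 below it, and was not called (-0.11 ± 0.06, adjusted p = 0.242). Hdac3 rose to 32.2, 32.9, 26.5 and 27.5 CPM (0.30 ± 0.09, adjusted p = 0.0393). T3 lay below V2, so its groups overlapped, and the call was lost in 7 of the 12 fits that left out 1 library, those without C3, C4, V1, V3, V4, T1 or T2 (adjusted p up to 0.116).

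Hdac5 reached 84.7, 78.5, 75.3 and 79.4 CPM, above every HFpEF-Veh library (0.31 ± 0.05, adjusted p = 0.00336). In TPM its libraries spread widely, with 23.3 in T1, 14.8 in T2, 13.2 in T3 and 9.92 in T4. Hdac4 stood at 24.8, 25.6, 28.0 and 25.1 CPM, also above every HFpEF-Veh library (0.37 ± 0.11, adjusted p = 0.0373), and its call was lost in 8 of 12 fits, those without C3, V1, V2, V3 or any 1 of T1 to T4 (adjusted p up to 0.0964). Hdac7 fell to 47.4, 47.1, 44.7 and 45.3 CPM, below every HFpEF-Veh library (-0.27 ± 0.06, adjusted p = 0.00664), and on log2(TPM + 1) its sign turned to 0.25, or 0.08 above the median of all genes. Hdac9 was at 5.78, 8.22, 6.43 and 8.23 CPM, within the range of HFpEF-Veh (0.29 ± 0.20, adjusted p = 0.341).

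Hdac6 rose by 20.0% in the mice given its inhibitor. It was at 15.5, 13.5, 14.8 and 12.1 CPM, with T4 below V1, so that the groups overlapped (0.26 ± 0.09, adjusted p = 0.0486). This call was close to the threshold. It was kept without V1 or T4 and lost without any of the other 10 libraries (adjusted p up to 0.146). Among those 10 are the Control-Veh libraries, which enter only through what the groups share in the fit. The call was also lost with DESeq2's size factors (0.0507) and without the filter (0.0625). Hdac10 was at 9.65, 10.5, 9.10 and 7.31 CPM, with T4 below V1 and V4, and was not called (0.40 ± 0.13, adjusted p = 0.0517). Hdac11 showed the largest difference of the 10 genes, 0.50 ± 0.08 (adjusted p = 0.00237). Its levels of 17.6, 15.6, 15.8 and 15.4 CPM lay above every HFpEF-Veh library, and the call held whichever library was left out (adjusted p up to 0.00905).

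With the effective lengths as an offset, 2 of the 10 genes were called in this comparison, Hdac5 (0.74, adjusted p = 0.0406) and Hdac11 (0.46, adjusted p = 0.0403), where 8.52% of all genes were called. Hdac6 was at 0.15 (0.667) and Hdac7 at -0.18 (0.474). On log2(TPM + 1) of nuclear protein-coding genes, Hdac5 alone was called, against 5.58% of all genes, and Hdac6 was at 0.11 (0.763).

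**Figure D3:**
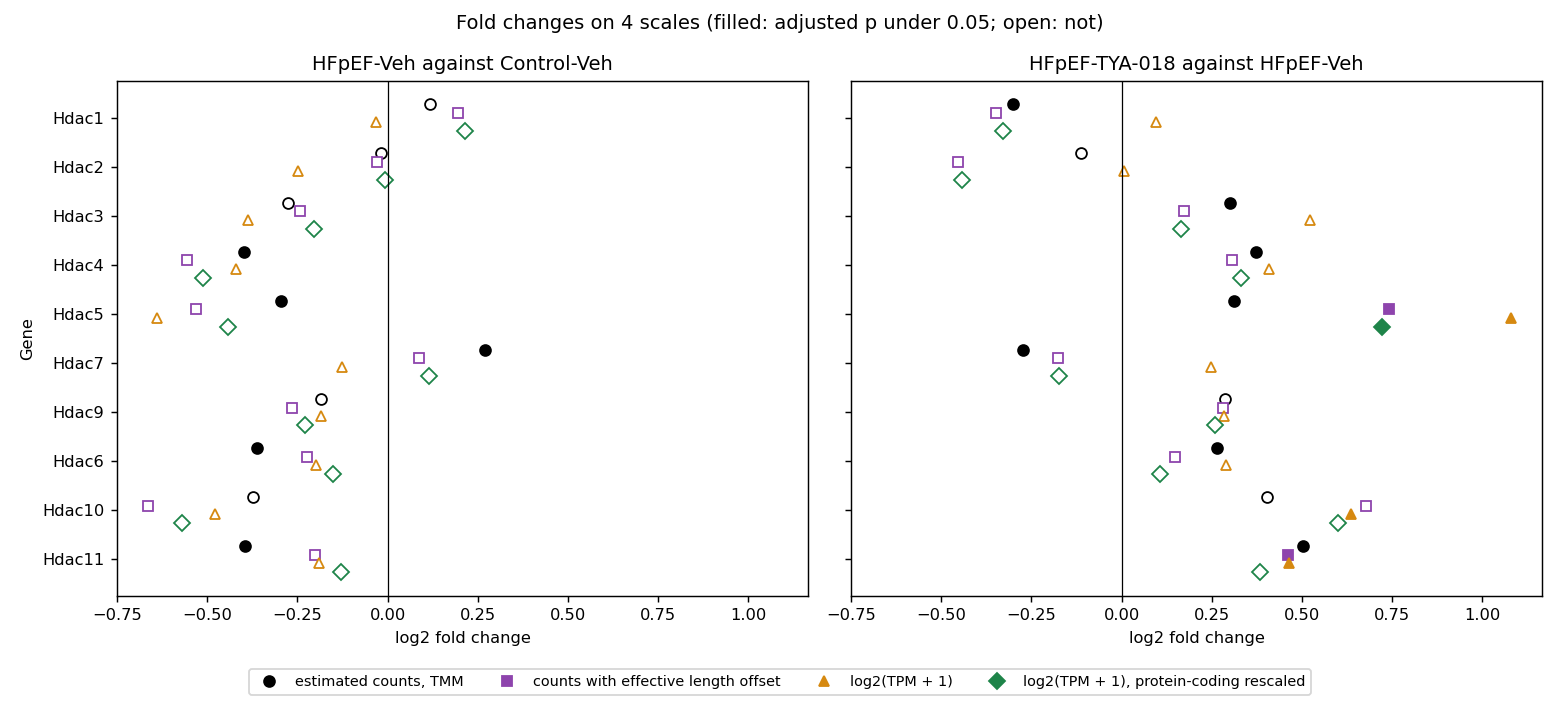
The log2 fold change of each gene is plotted in HFpEF-Veh against Control-Veh (left) and HFpEF-TYA-018 against HFpEF-Veh (right) on 4 scales, with filled symbols for an adjusted p under 0.05. On the left, filled symbols occur on the scale of estimated counts alone, and Hdac7 lies on either side of 0 depending on the scale.

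The third comparison sets HFpEF-TYA-018 against Control-Veh and shares its libraries with the other 2. By edgeR 0 of the 10 genes were called, where 5.86% of all genes were called (3.12% higher and 2.74% lower), and DESeq2 also called 0, where it called 10.6% of all genes. At an unadjusted p under 0.05 there was 1, Hdac1 (-0.18 ± 0.08, adjusted p = 0.221). Hdac2 was the only gene without overlap, with all 4 HFpEF-TYA-018 libraries below the controls (-0.13 ± 0.06, adjusted p = 0.251), where 14.8% of all genes did not overlap (7.76% higher and 7.05% lower). The values of Hdac6 (-0.10 ± 0.08), Hdac11 (0.11 ± 0.08) and Hdac9 (0.10 ± 0.20) differed from 0 by less than 1.5 SE. Hdac5 was at 0.01 ± 0.05, Hdac7 at 0.00 ± 0.06, Hdac3 at 0.02 ± 0.09, Hdac4 at -0.03 ± 0.11 and Hdac10 at 0.03 ± 0.13. These values do not show that the levels were equal.

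**Figure D4:**
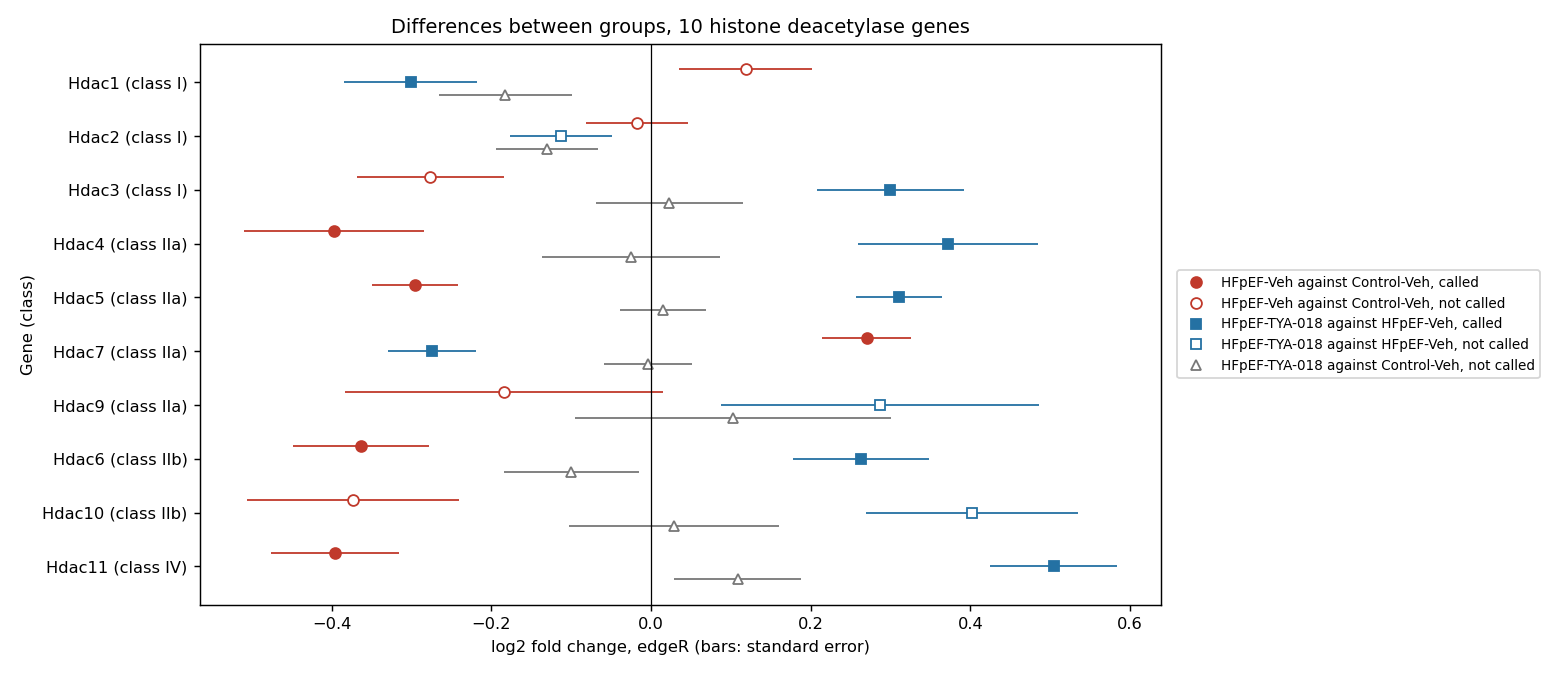
Log2 fold changes of the 10 genes by edgeR are plotted with bars of 1 SE for the 3 comparisons, with filled symbols for genes called at an adjusted p under 0.05. Hdac4, Hdac5, Hdac6 and Hdac11 lie left of 0 in HFpEF-Veh against Control-Veh and right of 0 in HFpEF-TYA-018 against HFpEF-Veh, Hdac7 does the opposite, and no symbol of the third comparison is filled.

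The 10 genes added up to 272 ± 3.97 CPM (SD, n = 4) for Control-Veh mice, 246 ± 6.31 for HFpEF-Veh and 269 ± 8.50 for HFpEF-TYA-018. The make-up of the sum differed between scales. Of the summed counts, class IIa made up 58.1%, 59.2% and 59.1% in the 3 groups in that same order, and class I 27.5%, 28.7% and 26.4%. Of the summed TPM, which allow for length, class I made up 49.0%, 53.1% and 42.3%, and class IIa 43.1%, 40.1% and 48.9%. Hdac7 took a larger part of the counts in HFpEF-Veh, 22.7% ± 0.996, than in Control-Veh (17.05% ± 1.29) or HFpEF-TYA-018 (17.2% ± 0.192). Hdac6 took 5.52% ± 0.251, 4.73% ± 0.323 and 5.196% ± 0.486 of the counts in the 3 groups, but 2.19% ± 0.429, 2.13% ± 0.595 and 2.21% ± 0.437 of the TPM, where the means lay within the spread. Hdac8, the remaining class I gene, was not among the 10 and was looked at after the other values were seen. It was the scarcest, at 1.47 to 2.89 CPM, and it was not called in any comparison (adjusted p from 0.627 to 0.923).

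Of 8864 genes with a mean of at least 5 CPM, those whose log2 CPM followed Hdac6 most closely over the 12 libraries were Dnmt3a, a DNA methyltransferase (Pearson r = 0.97, Spearman rho = 0.92), Iqcc (0.95, 0.91), Crocc, which encodes the ciliary protein rootletin (0.94, 0.94), Camk2g, a CaMKII subunit (0.94, 0.86), and Phka2, a subunit of phosphorylase kinase (0.93, 0.87). Among the other deacetylases Hdac11 was nearest (0.80, 0.83), then Hdac5 (0.77, 0.65) and Hdac10 (0.75, 0.67), whereas Hdac7 ran the other way (-0.65, -0.56). By Pearson r, Hdac11, Hdac5 and Hdac10 ranked 264, 391 and 465 of the 8864 genes, so many genes outside the family followed Hdac6 more closely. The points share libraries and fall into 3 groups, so these values describe likeness across the groups as much as across mice.

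Genes that work with the deacetylases were drawn from 8 lists holding 91 genes, of which 88 were tested. In HFpEF-Veh against Control-Veh 19 were called, 9 higher and 10 lower, or 21.6% against 21.2% of all genes. With TYA-018 against HFpEF-Veh 22 were called, 11 in each direction, where 19.3% of all genes were called. In HFpEF-TYA-018 against Control-Veh 10 were called, 1 higher and 9 lower, or 11.4% against 5.86%. The medians over the 88 genes were -0.02, -0.04 and -0.06 on the log2 scale. With the effective lengths as an offset the counts were 10, 11 and 1. Of 37 calls followed through other settings, up to 3 with the smallest p per list and comparison, 15 were kept with the offset. On log2(TPM + 1) of nuclear protein-coding genes 8 were kept. Leaving out 1 library gave 10 to 28, 10 to 29 and 3 to 9, with the lowest counts without C4, without T1 and without T1 or T3.

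The complexes of HDAC1 and HDAC2 are Sin3, NuRD and CoREST. Of 15 Sin3 genes 2 fell in HFpEF-Veh, where 10.3% of all genes were called lower. They were Sap30l (-0.33 ± 0.09, adjusted p = 0.0259) and Sap130 (-0.23 ± 0.07, adjusted p = 0.0341). In HFpEF-TYA-018 against HFpEF-Veh 3 rose and 2 fell, or 5 of 15 where 19.3% of all genes were called. The scaffold gene Sin3b rose (0.34 ± 0.09, adjusted p = 0.0200), as did the histone chaperone Rbbp4 (0.21 ± 0.06, adjusted p = 0.0253), whereas Arid4a fell from 13.01 ± 1.04 to 9.47 ± 1.03 CPM (-0.46 ± 0.10, adjusted p = 0.00870). Its paralog Arid4b was the sole Sin3 gene called against Control-Veh (-0.52 ± 0.10, adjusted p = 0.0165). In NuRD, the remodelling ATPase Chd4 fell in HFpEF-Veh (115 ± 2.06 to 99.3 ± 4.77 CPM, adjusted p = 0.00981) and was at 101 ± 1.41 CPM in HFpEF-TYA-018, also lower than Control-Veh (-0.19 ± 0.05, adjusted p = 0.0424). Gatad2a fell in HFpEF-TYA-018 against HFpEF-Veh (-0.27 ± 0.07, adjusted p = 0.0226). In CoREST, Rcor3 fell in HFpEF-Veh (-0.25 ± 0.07, adjusted p = 0.0205) and was also below Control-Veh in the treated mice (-0.29 ± 0.07, adjusted p = 0.0288), and Rcor2 rose in HFpEF-TYA-018 against HFpEF-Veh (0.46 ± 0.12, adjusted p = 0.0213). Of the 8 genes tested in each of NuRD and CoREST, each comparison called 1 gene, not always the same. Over all genes 21.2%, 19.3% and 5.86% were called in the 3 comparisons, in order. Each gene was counted in 1 list only. Rbbp4 and Rbbp7, both among the Sin3 genes that rose with TYA-018, were not counted with NuRD.

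Many of these calls were lost when 1 library was left out. In HFpEF-Veh against Control-Veh this held for Sap30l (without C2, C3, C4, V3 or V4), Sap130 (C3, C4, V1, V2 or V3) and Rcor3 (C4, V2 or V3), with adjusted p up to 0.0778, 0.0920 and 0.0647. For TYA-018 against HFpEF-Veh it held for Sin3b and Rcor2 (each without V3, V4, T1 or T2), Rbbp4 (V1, V4, T1 or T2) and Gatad2a (V1, V4, T1 or T3), with adjusted p up to 0.0797. Against Control-Veh it held for Chd4, lost in 9 of 12 fits (all but those without C1, V2 or V4, adjusted p up to 0.110), and for Rcor3 (C3, C4, T1, T2 or T3, up to 0.0847). The calls on Arid4a, on Arid4b against Control-Veh and on Chd4 in HFpEF-Veh held in all 12 fits. Arid4b was also called lower in HFpEF-TYA-018 against HFpEF-Veh (-0.35 ± 0.10, adjusted p = 0.0370), a call not followed through these fits. On log2(TPM + 1) Arid4a was at 0.029 for TYA-018 against HFpEF-Veh, a turned sign, where the median of all genes was 0.17.

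For the complex of HDAC3, 1 of 5 genes was called in each of the first 2 comparisons and 2 in HFpEF-TYA-018 against Control-Veh. The shares called over all genes were 21.2%, 19.3% and 5.86%. Gps2 fell in HFpEF-Veh from 26.9 ± 2.15 to 22.03 ± 1.70 CPM (adjusted p = 0.0137) and was at 21.9 ± 0.488 CPM in HFpEF-TYA-018 (adjusted p = 0.0307 against Control-Veh). Tbl1x fell in HFpEF-TYA-018 against HFpEF-Veh (-0.39 ± 0.05, adjusted p = 0.00117) and against Control-Veh (-0.25 ± 0.05, adjusted p = 0.0208). The call on Gps2 in HFpEF-Veh and that on Tbl1x in the second comparison held whichever library was left out. On log2(TPM + 1) the sign of Tbl1x in the second comparison turned (0.041), where the median of all genes was 0.17. Against Control-Veh, Gps2 was lost without C2, C4 or any 1 of T1 to T4 (adjusted p up to 0.0854) and Tbl1x without T1 or T3 (up to 0.0595).

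Of 24 partners of class IIa, 7 were called higher and 2 lower in HFpEF-Veh, where 10.9% and 10.3% of all genes were. The higher genes included 14-3-3 genes, which encode the proteins that hold phosphorylated class IIa enzymes in the cytoplasm. Ywhah rose from 61.2 ± 4.03 to 82.2 ± 1.12 CPM (0.43 ± 0.07, adjusted p = 0.00198) and Ywhab from 61.8 ± 4.00 to 79.4 ± 4.51 CPM (0.36 ± 0.06, adjusted p = 0.00242). The kinase gene Camk2a fell from 36.4 ± 3.87 to 26.2 ± 1.90 CPM (-0.47 ± 0.08, adjusted p = 0.00194). With TYA-018, 2 rose and 6 fell against HFpEF-Veh, where 8.93% and 10.4% of all genes did. Camk2a rose to 33.0 ± 0.942 CPM (0.33 ± 0.08, adjusted p = 0.0122), and Camk2g rose as well (0.24 ± 0.06, adjusted p = 0.0213). Camk2g had also been called lower in HFpEF-Veh (-0.34 ± 0.06, adjusted p = 0.00311). Ywhah fell to 64.4 ± 5.80 CPM (-0.35 ± 0.07, adjusted p = 0.00605), a sign that turned on log2(TPM + 1), and the protein kinase D genes Prkd1 (-0.62 ± 0.12, adjusted p = 0.00456) and Prkd3 (-0.49 ± 0.09, adjusted p = 0.00363) fell as well. Prkd3 had been called higher in HFpEF-Veh (0.31 ± 0.09, adjusted p = 0.0236). The calls on Camk2g, on Camk2a with TYA-018 and on Prkd3 in HFpEF-Veh were not followed through the fits that left out 1 library. Against Control-Veh, Prkd1 (-0.48 ± 0.12, adjusted p = 0.0334) and Camk2d (-0.27 ± 0.07, adjusted p = 0.0490) were lower in HFpEF-TYA-018, and the call on Camk2d was lost without any 1 of the 12 libraries and that on Prkd1 without C1, C3, C4 or any 1 of T1 to T4 (adjusted p up to 0.0868).

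Of 11 tested substrates and partners of HDAC6, 1 rose and 1 fell in HFpEF-Veh, where 10.9% and 10.3% of all genes did. In HFpEF-TYA-018 against HFpEF-Veh 4 rose and none fell, where 8.93% of all genes rose and 10.4% fell. Sqstm1 encodes the autophagy receptor p62, which like HDAC6 binds ubiquitin. It fell in HFpEF-Veh from 378 ± 28.4 to 323 ± 13.7 CPM (-0.23 ± 0.07, adjusted p = 0.0411) and rose to 440 ± 31.3 CPM in HFpEF-TYA-018 (0.45 ± 0.07, adjusted p = 0.00246). Its first call was lost without C2, C4, V1, V2, V3 or T3 and its second held throughout. Vcp, an ATPase that binds HDAC6, rose in HFpEF-TYA-018 against HFpEF-Veh from 222 ± 25.2 to 293 ± 15.0 CPM (0.40 ± 0.09, adjusted p = 0.00988), as did the peroxiredoxin gene Prdx2 from 167 ± 11.7 to 220 ± 21.8 CPM (0.39 ± 0.10, adjusted p = 0.0167, lost without T1 or T2). Its relative Prdx1 was higher than in Control-Veh (0.27 ± 0.07, adjusted p = 0.0333), a call lost without C1, C3, C4, T1, T2 or T3. The chaperone gene Hsp90aa1 rose in HFpEF-Veh (0.33 ± 0.08, adjusted p = 0.0143).

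Among the enzymes that add acetyl groups, 1 of 13 rose and 2 fell in HFpEF-Veh, where 10.9% and 10.3% of all genes did. Kat6b fell from 21.7 ± 0.206 to 17.2 ± 1.61 CPM (-0.33 ± 0.08, adjusted p = 0.0146) and was at 15.0 ± 1.54 CPM in HFpEF-TYA-018 (-0.53 ± 0.08 against Control-Veh, adjusted p = 0.00546). Kat8 fell (-0.33 ± 0.10, adjusted p = 0.0356) and Naa60 rose (0.19 ± 0.06, adjusted p = 0.0351). The call on Kat8 was lost without C2, C3, C4, V1 or V3 and that on Naa60 without C1, C2, C4, V1, V3 or V4 (adjusted p up to 0.0972 and 0.0958). The coactivator gene Ncoa3 fell in HFpEF-TYA-018 against HFpEF-Veh from 54.1 ± 2.47 to 41.1 ± 3.95 CPM (-0.40 ± 0.07, adjusted p = 0.00337) and against Control-Veh (-0.46 ± 0.07, adjusted p = 0.00448). Hat1 rose in the second comparison (0.20 ± 0.06, adjusted p = 0.0464), a call lost in 11 of the 12 fits that left out 1 library, all but that without C1. Of the 4 BET family readers of acetyl-lysine, 0 were called by edgeR in any comparison. At an unadjusted p under 0.05 there was 1, against Control-Veh.

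**Figure D5:**
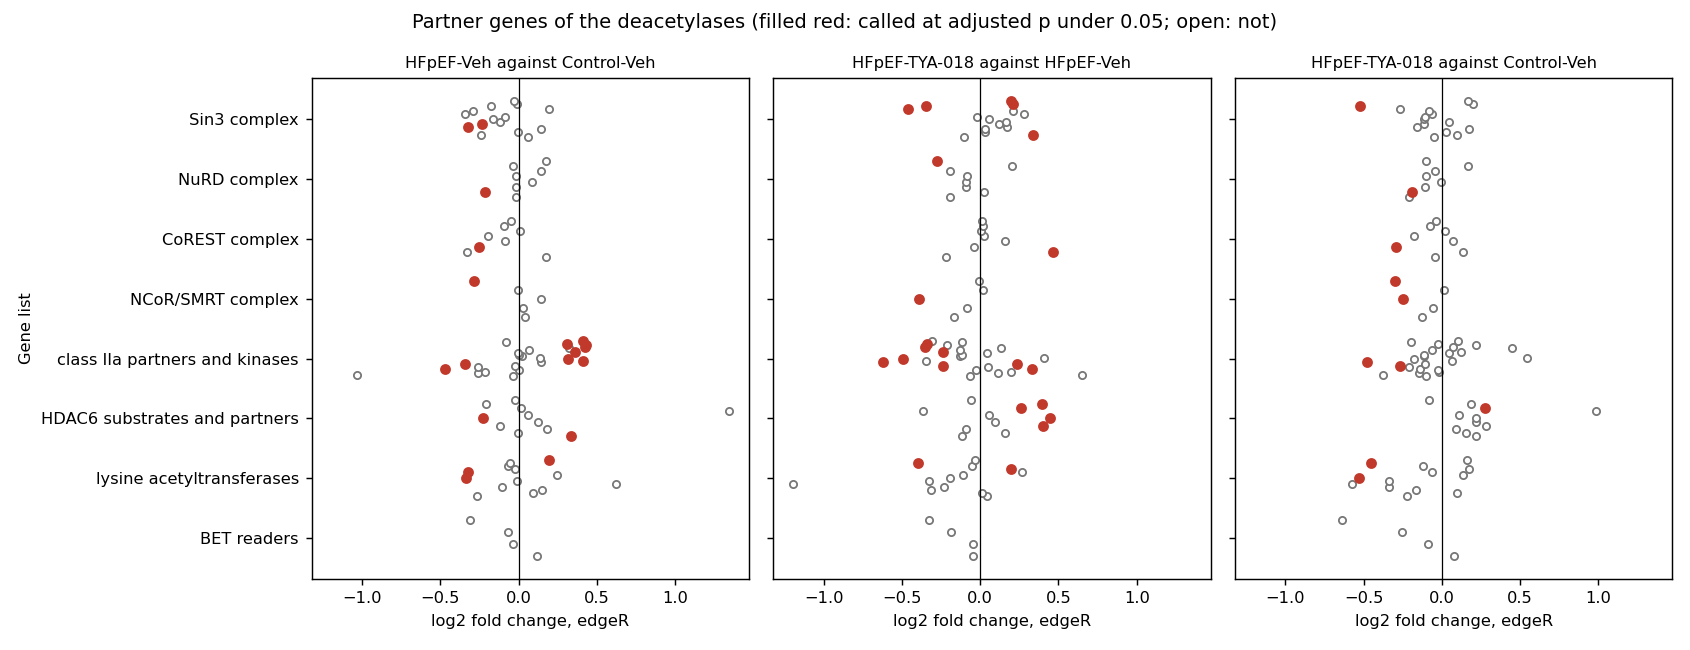
Log2 fold changes by edgeR of the 88 partner genes are plotted by list for the 3 comparisons, with 1 point per gene and filled red points for genes called at an adjusted p under 0.05. The filled points of class IIa partners lie mostly to the right in HFpEF-Veh against Control-Veh (7 of 9) and mostly to the left in HFpEF-TYA-018 against HFpEF-Veh (6 of 8).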

How the data were processed

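Left ventricle poly(A) RNA of 12 mice was sequenced, and groups were taken from the sample titles. The authors trimmed reads with fastp, quantified them with salmon (version 1.6.0 in the submitters' processing notes) on GENCODE M25 transcripts of GRCm38.p6 and summarised them per gene with tximport. The processing notes name a human genome build, whereas the gene symbols are those of mouse. The labels and the methods disagree on read length and layout. The deposited tables hold estimated counts, which are not normalised, TPM, and, as another value, effective gene lengths in bases. All columns were used (0 left out).

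Estimated counts were rounded and tested with edgeR 4.0.16 (R 4.3.3). Genes were kept by filterByExpr, which left 14333, and libraries were scaled by TMM. All 12 libraries entered a single quasi-likelihood fit (9 residual degrees of freedom), whose common biological coefficient of variation was 0.232. Tests were two-sided, p was adjusted by Benjamini-Hochberg over all genes tested, and adjusted p under 0.05 made a call. SE is the log2 fold change divided by the square root of F. The fit was tested on simulated counts. The study tested log2(TPM + 1), which was run with limma 3.58.1. Other alternatives were DESeq2 1.42.0, its size factors, no filter, a pseudocount of 0.1, effective lengths as an offset, the 2 groups alone, and each library left out. CPM are TMM-scaled, except for marker sums, which are of total counts.

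Of the symbols, 94.2% were in the GENCODE M21 annotation used for positions. The genes named were all 10 deacetylases, up to 3 called genes with the smallest p per partner list and comparison, and the 5 genes most like Hdac6 by Pearson r. Members and lists were chosen with earlier results of these data known. Python 3.11.15 and matplotlib 3.10.9 were used for summaries and figures.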

Additional observations from a re-analysis of the deposited data

Results flagged for a closer look

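Library C4 lay apart from the other Control-Veh libraries in Hdac9, at 5.71 CPM against 6.96 to 7.01 CPM in C1 to C3. The gap took up 0.959 of the range of the group, above the critical value of Dixon's test for 4 samples. Of 30 groups of 4 libraries examined (10 genes in 3 groups) this was the 1 that passed, and chance alone passes about 1 in 20. Hdac9 was not called in any comparison.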

How the results depend on the processing

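No paired analysis was possible because the groups have no animal number in common. With DESeq2 all 12 calls on deacetylases and all 37 on named partner genes were kept. With its size factors 11 and 35 were kept, without the filter 11 and 29, and with the 2 groups alone 9 and 26. With effective lengths as an offset 2 and 15 were kept, and on log2(TPM + 1) of nuclear protein-coding genes 1 and 8. The cause of these losses was not tested.

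Deacetylase calls in HFpEF-Veh against Control-Veh numbered 0 with the offset and on all 3 TPM scales. In HFpEF-TYA-018 against HFpEF-Veh they numbered 2 with the offset, 3 on log2(TPM + 1), 4 on log2(TPM + 0.1) and 1 on the protein-coding scale. Leaving out 1 library gave 4 to 6 and 3 to 7, and 0 against Control-Veh. Partner calls in HFpEF-Veh against Control-Veh numbered 10 with the offset, 1 on log2(TPM + 1), 1 on log2(TPM + 0.1), 7 on the protein-coding scale and 12 with the 2 groups alone. For the second comparison they numbered 11 with the offset and 5 on the protein-coding scale. Against Control-Veh they numbered 1 with the offset, 5 with the 2 groups alone and 0 on all 3 TPM scales. Leaving out 1 library gave 10 to 28 (10 without C4, 11 without V3), 10 to 29 (13 without V4 or T2, 10 without T1) and 3 to 9 (6 without C3 or T4, 4 without C4 or T2, 3 without T1 or T3).

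On log2(TPM + 1) and log2(TPM + 0.1) the median of all genes moved to -0.07 and -0.17 in HFpEF-Veh against Control-Veh, to 0.17 and 0.34 in HFpEF-TYA-018 against HFpEF-Veh, and to 0.08 and 0.17 against Control-Veh. For TYA-018 against HFpEF-Veh limma called 2228 genes higher and 68 lower on the first scale and 2548 and 70 on the second, against 1280 and 1487 by edgeR. In HFpEF-Veh against Control-Veh it called 51 and 121, and 93 and 208, against 1561 and 1472.

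Signs turned as follows, with the value at a pseudocount of 1 and then of 0.1. In HFpEF-Veh against Control-Veh, Hdac1 was at -0.033 and -0.040 and Hdac7 at -0.13 and -0.14. With TYA-018 against HFpEF-Veh, Hdac1 was at 0.096 and 0.11, Hdac2 at 0.0068 and 0.0079, Hdac7 at 0.25 and 0.28, Ncoa3 at 0.033 and 0.030, Ywhah at 0.23 and 0.24, Tbl1x at 0.041 and 0.057, Gatad2a at 0.061 and 0.084, and Arid4a at 0.029 and 0.047. With TYA-018 against Control-Veh, Hdac1 was at 0.062 and 0.074, Hdac7 at 0.12 and 0.13, Hdac6 at 0.090 and 0.13, Camk2d at 0.12 and 0.13, Gps2 at 0.017 and 0.016, and Chd4 at 0.065 and 0.070. Relative to the median of all genes, the sign was still turned at a pseudocount of 1 for Hdac7 in all 3 comparisons, for Ywhah, and for Hdac6 and Camk2d against Control-Veh.

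Uncalled values near 0 also changed sign. Against Control-Veh, Hdac3 was at -0.071 with the offset and -0.040 on the protein-coding scale, and Hdac7 was at 0.00039 without the filter and 0.0049 with the 2 groups alone. Leaving out 1 library gave -0.042 to 0.13 for Hdac10, -0.028 to 0.076 for Hdac3, -0.10 to 0.089 for Hdac4, -0.017 to 0.040 for Hdac5 and -0.040 to 0.033 for Hdac7, and in HFpEF-Veh against Control-Veh -0.067 to 0.022 for Hdac2. Of the 12 deacetylase calls 7 held in all 12 such fits.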
